A study of Arabidopsis thaliana with 4 samples.

Results

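The genes considered here are those carried by the chromosome of the plastid, the organelle that becomes the chloroplast in green cells. They were taken as all probe sets of the Affymetrix ATH1 array of Arabidopsis thaliana that the platform's annotation ties to 1 gene symbol and whose gene lies on the plastid chromosome in the RefSeq annotation (assembly TAIR10.1). This gave 69 genes with 1 probe set each, out of 78 plastid protein-coding gene symbols in that annotation and 22746 probe sets on the array. The other 9 were not analysed here. Total RNA of whole seedlings, taken at developmental stage 1.02, was hybridised from a CDB1 line (complete knockout, Col-0 background, 2 arrays) and from Col-0 wild type (stock N1092, 2 arrays). Both genotypes grew on 1/2 MS10 medium in a growth room set to 20 °C, 80% humidity and 16 h days. By its title the series concerns a Polycomb-binding protein, and Polycomb is a system that silences genes through chromatin in the nucleus. The labels say neither which locus CDB1 is, nor how the line was made, nor whether replicates came from separately grown seedlings, so a p-value here reflects array-to-array spread that could be purely technical.

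The plastid chromosome encodes core subunits of both photosystems, of the cytochrome b6f complex, of the ATP synthase and of the NADH dehydrogenase-like (NDH) complex. It also encodes the large subunit of Rubisco, ribosomal proteins and a bacterial-type RNA polymerase. Most of its genes are read as long transcripts that hold several genes and are then cut into smaller messages. A plastid-encoded polymerase (PEP) transcribes mainly photosynthesis genes, while a phage-type, nuclear-encoded polymerase (NEP) transcribes most genes of PEP itself and a few others. Most plastid messages lack long poly(A) tails, and no label states how the RNA was primed for labelling.

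The arrays did not pair by genotype over these genes. Across the 69 genes, knockout replicate 1 correlated with wild type replicate 2 at r = 0.986, and knockout replicate 2 with wild type replicate 1 at r = 0.986. The 2 knockout arrays correlated at only 0.945 and the 2 wild type arrays at 0.920. These correlations are across genes of the same libraries, many of which share a transcript, and genes are not independent replicates. Log2 differences between arrays had an SD of 0.535 for the knockout pair and 0.614 for the wild type pair. It was 0.292 between knockout replicate 1 and wild type replicate 2, and 0.260 between knockout replicate 2 and wild type replicate 1. Knockout replicate 1 and wild type replicate 1 differed with an SD of 0.604, and the arrays of replicate 2 with one of 0.503. The replicate spread was thus wider than the first 2 of these distances between genotypes and of similar size to the others. Over all tested probe sets, knockout replicate 2 and wild type replicate 1 were also the closest pair (SD 0.229). There the knockout pair had 0.242, knockout replicate 1 with wild type replicate 2 had 0.260, and the wild type pair had 0.273. No annotation used here links the name CDB1 to a probe set, so the targeted gene could not serve as a check of the labels. Whether arrays carry the right genotype label, or were exchanged, was not tested, and every value of knockout over wild type rests on the labels as given.

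No plastid-encoded gene passed the test for a difference between knockout and wild type seedlings. Of the 69 genes, 0 passed an adjusted p of 0.05 in limma, beside 0.320% of all 15924 tested probe sets. At so low a share over the array, a count of 0 among 69 genes is not a trait of these genes. At an unadjusted p under 0.05 in limma, 1 gene passed, cemA, against 5.24% of all tested probe sets. The log2 fold changes (knockout over wild type, on the log2(signal + 16) scale) ran from -0.57 for rps14 to 0.34 for psbN. Their median was -0.052, beside -0.015 over all tested probe sets, and 44 of the 69 lay below 0. With 1 array left out the median ranged from -0.097 to -0.0057. After each array was centred on its median, 37 of the 69 lay below 0. The limits of the test can be stated gene by gene: the 95% interval lay within -1 and 1 on the log2 scale for 64 genes and within -0.5 and 0.5 for 35. Had there been a difference, the share of green cells and the plastid RNA per cell could not be told apart in whole seedlings.

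**Figure D1:**
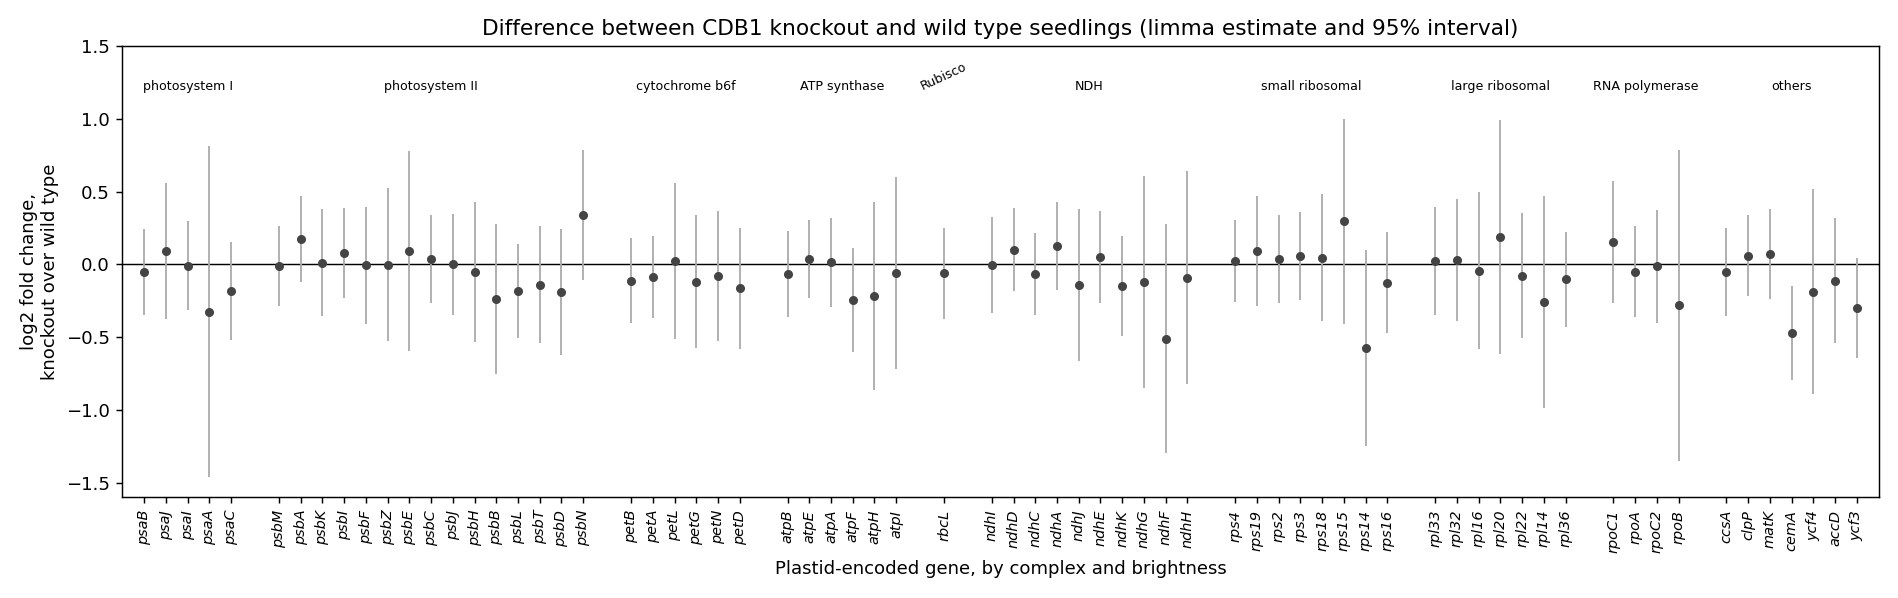
Log2 fold change of each of the 69 plastid-encoded genes, CDB1 knockout over Col-0 wild type, by complex and from bright to dim within it; points are limma estimates and bars their 95% intervals. All intervals but that of cemA (-0.80 to -0.15) include 0, and the widest belong to psaA, rpoB, rpl20 and ndhF.

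Only 4 genes had groups that did not overlap, 5.80% of the 69, where 31.9% of all tested probe sets had none. They were psbA, with both knockout arrays above both wild type arrays, and cemA, atpF and ycf3, with both below. The background was 15.0% above and 16.9% below. In the other 65 genes the arrays of the genotypes overlapped.

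The plastid probe sets were among the brightest of the array. Signals are the authors' MAS5 values in arbitrary units, and their median over all probe sets was 47.9 to 50.6 per array. The 69 genes had a median mean signal of 757, from 49.8 for ndhH to 3215 for atpB, so all of them lay above the brightness floor of 19.5 set for the test. Of the 1000 brightest probe sets, 39 were plastid-encoded, and of the 50 brightest, 6. The summed signal of the 69 genes was 2.22% and 2.21% of the total on the knockout arrays, against 2.31% and 2.20% on the wild type arrays, so the groups overlapped. Probe sets differ in how well they bind, so the order of signals below is not an order of transcript amounts. Signals are given for replicate 1 and then replicate 2 of each genotype.

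**Figure D2:**
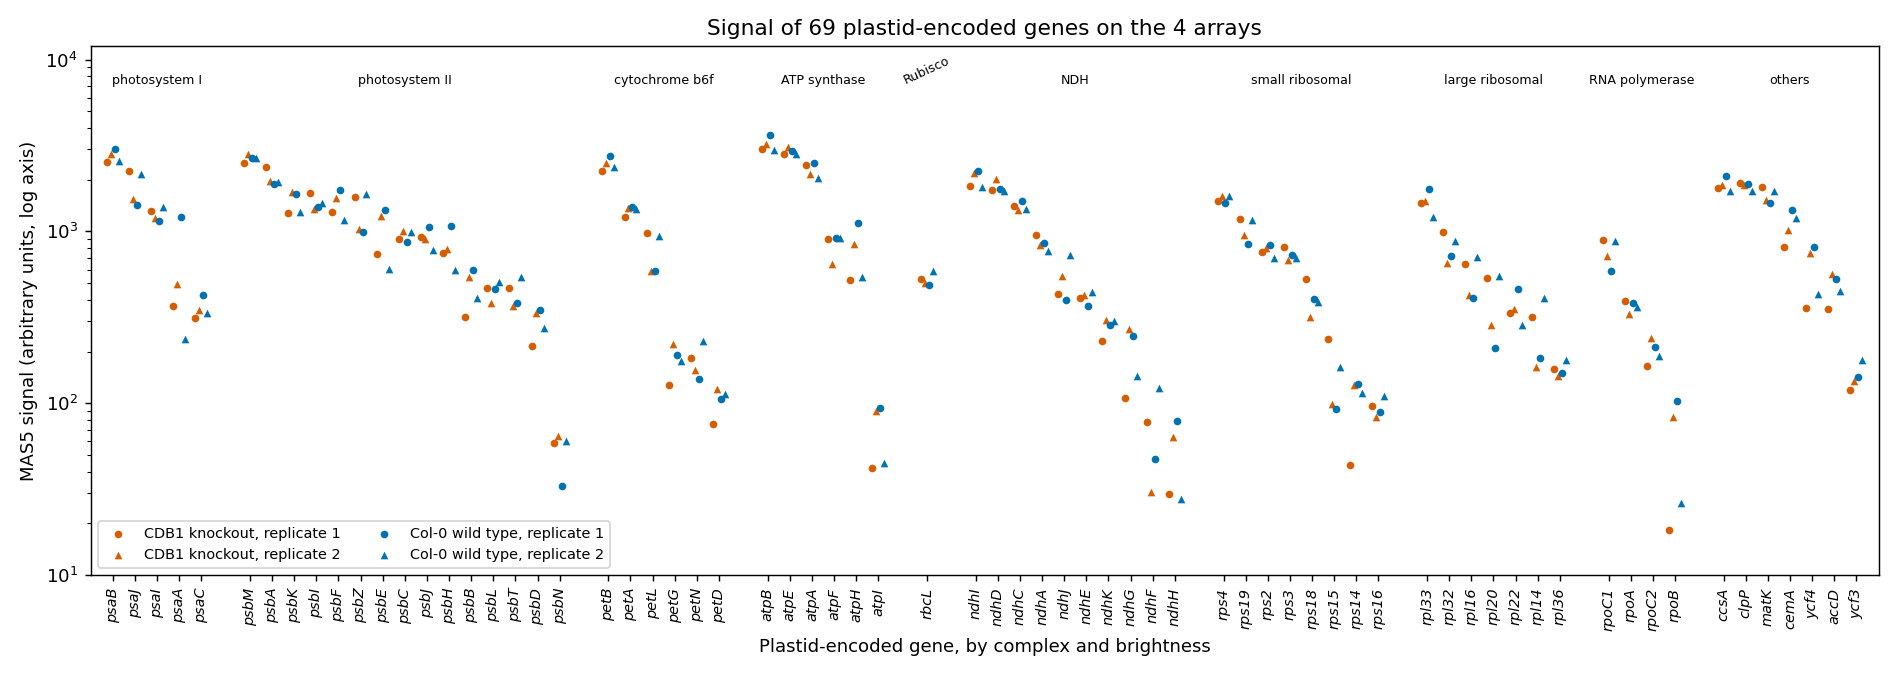
MAS5 signal (log axis) of the 69 plastid-encoded genes on the 2 CDB1 knockout arrays (orange) and the 2 wild type arrays (blue), circles for replicate 1 and triangles for replicate 2, sorted by complex. In many genes a circle of one colour lies beside the triangle of the other, as in rpoB and atpI.

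Photosystem I, which drives electrons to ferredoxin, was represented by 5 psa genes. Their median log2 fold change was -0.052, with 1 above 0. The reaction centre genes psaA and psaB encode the paired proteins that hold the primary electron donor. psaB read 2551 and 2823 on the knockout arrays, against 3036 and 2553 on the wild type arrays (log2 fold change -0.052, 95% interval -0.35 to 0.24). Its arrays lay close together and overlapped. psaA read 367 and 496 on the knockout arrays, against 1208 and 236 on the wild type arrays. Both knockout values thus lay between 2 wild type values that differed 5.12-fold, the widest gap between wild type arrays among the 69 genes. Its log2 fold change of -0.33 (interval -1.46 to 0.81) turned with the array left out: it was -1.47 without wild type replicate 2 (limma adjusted p = 0.00307) and 0.82 without wild type replicate 1. The small subunit gene psaJ read 2242 and 1539 in knockout seedlings, against 1417 and 2145 in wild type seedlings, with 1 high and 1 low array in each genotype. psaC, for the subunit that carries the terminal iron-sulfur clusters, read 314 and 349, against 426 and 335 (log2 fold change -0.18).

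Photosystem II, which splits water, was represented by 15 psb genes with a median log2 fold change of -0.0032, 6 of them above 0. psbA encodes the reaction centre protein that is damaged by light and replaced most rapidly. It read 2370 and 1960 on the knockout arrays, against 1883 and 1932 on the wild type arrays (log2 fold change 0.18, interval -0.12 to 0.47, limma adjusted p = 0.998). The groups did not overlap, but the lower knockout array exceeded the higher wild type array by less than the knockout arrays differed from each other. psbM, a small membrane subunit and the brightest psb gene, was steady at 2507 and 2805 in the knockout, against 2689 and 2661 in wild type. psbB, for an inner antenna protein that passes light energy to the reaction centre, read 319 and 543, against 594 and 411. Its log2 fold change of -0.24 was the lowest among the psb genes, and its arrays overlapped. The dimmest, psbN, is encoded on the opposite strand within the psbB unit and has a role in photosystem II assembly. It read 58.4 and 64.5 on the knockout arrays, against 33.1 and 60.1 on the wild type arrays, so the log2 fold change of 0.34 (interval -0.10 to 0.79) came mostly from wild type replicate 1.

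The cytochrome b6f complex links the photosystems, and the log2 fold changes of its 6 pet genes had a median of -0.099, with 5 below 0. petB, which encodes cytochrome b6, read 2234 and 2505 on the knockout arrays, against 2752 and 2375 on the wild type arrays. petD, for subunit IV and directly downstream of petB, read 75.5 and 121 in the knockout, against 106 and 114 in wild type. Its log2 fold change of -0.17 was the lowest of the 6. petL, a small subunit, read 976 and 586 in the knockout, against 592 and 936 in wild type, and its log2 fold change of 0.023 had an interval from -0.51 to 0.56. High and low values of petL were split between the genotypes in equal number.

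The ATP synthase genes held the brightest plastid signals. Over the 6 atp genes the log2 fold changes had a median of -0.064, with 2 above 0. atpB, for the catalytic beta subunit, read 3034 and 3232 on the knockout arrays, against 3621 and 2975 on the wild type arrays (log2 fold change -0.068, interval -0.36 to 0.23). The estimate turned to 0.087 after quantile normalization. atpE, for the epsilon subunit, read 2831 and 3081 in the knockout, against 2938 and 2819 in wild type. Both genes overlapped between genotypes, and their intervals lay within -0.5 and 0.5. atpF, which encodes a subunit of the stalk in the membrane part, read 909.5 and 649 in the knockout, against 916 and 909.8 in wild type. Knockout replicate 1 was level with the lower wild type array, and the log2 fold change of -0.24 came from knockout replicate 2. atpI, for the subunit that forms the proton channel, was dim at 41.8 and 90.2 in the knockout, against 93.7 and 44.9 in wild type, so each genotype had 1 array about as high as that of the other.

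rbcL encodes the large subunit of Rubisco, the carbon-fixing enzyme. It read 526 and 504 on the knockout arrays, against 490.2 and 592 on the wild type arrays (log2 fold change -0.063, interval -0.37 to 0.25, limma adjusted p = 0.998). Both knockout values lay within the wild type range.

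The NDH complex returns electrons from ferredoxin to the plastoquinone pool around photosystem I. Log2 fold changes of the 10 ndh genes had a median of -0.080, with 3 above 0. ndhI, the brightest, encodes an iron-sulfur subunit and read 1839 and 2200.0 in the knockout, against 2261 and 1808 in wild type. ndhA, for a membrane subunit, had the largest positive estimate of the 10, at 959 and 829 in the knockout, against 861 and 772 in wild type (log2 fold change 0.13, interval -0.18 to 0.43). Neither gene separated the genotypes. ndhF, another membrane subunit, read 77.8 and 30.4 in the knockout, against 47.6 and 123 in wild type. Its log2 fold change of -0.51 was the second lowest of all 69 genes, but its interval ran from -1.30 to 0.28, and arrays of a genotype differed 2.56-fold in the knockout and 2.58-fold in wild type. ndhH, the dimmest of all 69 genes, read 29.5 and 63.7, against 78.4 and 27.7.

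The arrays of the genotypes overlapped for all 15 ribosomal protein genes. Groups did not overlap in 31.9% of all tested probe sets but in only 5.80% of the 69 plastid genes. Full overlap is thus not a trait of the ribosomal genes among them. Median log2 fold changes were 0.042 for the 8 rps genes of the small subunit, with 6 above 0, and -0.043 for the 7 rpl genes of the large subunit, with 3 above 0. rps4, the brightest rps gene, read 1505 and 1608 in the knockout, against 1464 and 1606 in wild type. rps14, which lies beside psaB in the same transcription unit, had the lowest log2 fold change of all 69 genes, -0.57 (interval -1.25 to 0.10, limma adjusted p = 0.998). It read 43.8 and 127 on the knockout arrays, against 129.5 and 115 on the wild type arrays. Knockout replicate 1 alone was low, and knockout replicate 2 lay within the wild type range. Without knockout replicate 2 the log2 fold change was -1.20 (limma adjusted p = 0.0475), and without knockout replicate 1 it was 0.055. rps15 read 237 and 99.1 in the knockout, against 92.5 and 162 in wild type (log2 fold change 0.30, interval -0.41 to 1.00). rps16, the dimmest, read 97.1 and 82.8, against 88.9 and 111.

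In the large subunit, rpl33, the brightest, read 1471 and 1499 in the knockout, against 1758 and 1215 in wild type. rpl20 read 536 and 286 on the knockout arrays, against 211 and 552 on the wild type arrays, and rpl14 read 316 and 162, against 184 and 408. Their log2 fold changes of 0.19 and -0.26 were the ends of the rpl range, and in both genes knockout replicate 1 and wild type replicate 2 were the high arrays. rpl36, the dimmest, read 159 and 145 in the knockout, against 150.4 and 180 in wild type.

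The 4 rpo genes encode the core of PEP, and their median log2 fold change was -0.032. rpoB, for the catalytic beta subunit, read 18.4 and 83.2 on the knockout arrays, against 104 and 26.2 on the wild type arrays. Arrays of a genotype thus differed 4.52-fold in the knockout and 3.95-fold in wild type, while the log2 fold change was -0.28 (interval -1.35 to 0.79). rpoC1 read 898 and 718, against 588 and 882, with the opposite arrays high (log2 fold change 0.15). rpoC2 read 165 and 239 in the knockout, against 214 and 188 in wild type, and rpoA, for the alpha subunit, read 396 and 330, against 386 and 364. None of the 4 separated the genotypes.

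Of the 7 remaining genes, cemA came closest to a difference. It encodes a protein of the plastid envelope and lies between ycf4 and petA. It read 806 and 1017 on the knockout arrays, against 1336 and 1194 on the wild type arrays. Both knockout arrays lay below both wild type arrays, and the log2 fold change was -0.47 (SE 0.147, interval -0.80 to -0.15). Its limma p of 0.00838 became 0.484 after adjustment over all tested probe sets. The estimate ranged from -0.64 to -0.31 with 1 array left out. Its neighbour petA, for cytochrome f, read 1211 and 1369 in the knockout, against 1378 and 1358 in wild type, a log2 fold change of -0.086. ycf3, which encodes an assembly factor of photosystem I, was at 119 and 135 in the knockout, against 142 and 179 in wild type (log2 fold change -0.30, interval -0.64 to 0.042). accD, a subunit of acetyl-CoA carboxylase for fatty acid synthesis, read 356 and 564, against 525 and 449.5. clpP, the proteolytic subunit of the Clp protease, was steady at 1906 and 1858 in the knockout, against 1898 and 1716 in wild type. ccsA, for cytochrome c assembly, read 1792 and 1869, against 2096 and 1719, and matK, for an intron maturase, read 1805 and 1523, against 1459 and 1708 (log2 fold change 0.070).

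Grouped by the polymerase known to transcribe each gene, in tobacco for part of them, the log2 fold changes had medians close to 0. For the 31 genes listed as read mainly by PEP the median was -0.055, with 9 above 0. The 9 genes listed with promoters of both kinds, mostly atp genes, had one of -0.068, with 3 above 0. The 5 genes listed as read by NEP, rpoB, rpoC1, rpoC2, accD and rps15, had one of -0.013, with 2 above 0. With 1 array left out the median ranged from -0.11 to 0.020 in the PEP list, from -0.12 to 0.073 in the mixed list and from -0.26 to 0.21 in the NEP list, so the sign of each of the 3 rests on single arrays. The other 24 genes were not assigned to a polymerase and had a median of -0.025. In the NEP list, 5 of 5 genes had replicate differences of opposite sign in the 2 genotypes, as did 7 of 7 rpl and 5 of 5 psa genes. Of the NEP list, rpoB, rpoC1 and rpoC2 share 1 transcription unit. The counts were lower elsewhere, at 12 of 15 psb, 5 of 6 pet, 4 of 6 atp and 5 of 10 ndh genes. They were 5 of 8 for rps, 3 of 4 for rpo and 5 of 7 for the remaining genes. The share was 75.4% over the 69 genes and 60.3% over all tested probe sets. Replicates in the NEP list differed by a median of 0.641 (log2) in the knockout and 0.572 in wild type, against 0.284 and 0.267 in the PEP list. The NEP list was also dimmer, at a median signal of 201 against 855. Among the 34 plastid genes under the plastid median signal the differences were 0.533 and 0.412, and among the rpl genes 0.567 and 0.664.

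Probe sets of genes that share a primary transcript had widely different signals. In the unit of rps2, atpI, atpH, atpF and atpA, mean signals spanned 33.8-fold, from 67.7 for atpI to 2283 for atpA, and log2 fold changes ran from -0.24 to 0.037. In the unit from ndhH to ndhD, which also holds psaC, 7 genes spanned 40.7-fold and had log2 fold changes of -0.18 to 0.13. All 5 genes of the psbB, psbT, psbH, petB and petD unit lay below 0, at -0.24 to -0.055, as did the 3 genes of the psaA, psaB and rps14 unit and the 4 of the psaI, ycf4, cemA and petA unit. Over the 15 units with at least 2 measured genes, 4 lay wholly below 0 (the fourth being the ndhC unit), 3 wholly above (the psbK, rpl33 and clpP units) and 8 had genes on both sides. Genes of a unit are not independent, and none of these passed the test.

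Arrays of the same genotype lay further apart over the plastid genes than over all tested probe sets, which is given as a description without a test. In the knockout, 33.3% of the 69 genes differed by more than 0.5 on the log2 scale between replicates, against 4.19% of all tested probe sets. In wild type the shares were 36.2% and 6.91%. The gap was also present within 2 ranges of signal, although plastid genes were the brighter in each. Median signals were 1445 for plastid against 1037 for nuclear in the upper range, and 287 against 111 in the lower. Among the 35 plastid genes at or above the plastid median signal the shares were 17.1% in the knockout and 25.7% in wild type, and among 192 nuclear probe sets with 1 gene and at least that signal they were 3.65% and 0.521%. Among the 34 dimmer plastid genes the gap exceeded 0.5 in 17 genes in the knockout and 16 in wild type. It did so in 4.26% and 5.22% of 5592 nuclear probe sets in the same range. Plastid genes of 1 array share a library and often a transcript, so they are not independent.

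The replicate differences ran in opposite directions in the genotypes. Replicate 2 minus replicate 1 had opposite signs in knockout and wild type for 52 of the 69 genes (75.4%), against 60.3% of all tested probe sets, and the correlation over the 69 genes was -0.706, against -0.301 over all tested probe sets. It was -0.463 over the 192 bright nuclear probe sets. In 30 genes (43.5%) the 2 highest arrays were knockout replicate 2 and wild type replicate 1, against 20.3% of all tested probe sets. In 20 other genes (29.0%) they were knockout replicate 1 and wild type replicate 2, against 22.5%. Both patterns thus occurred on the same 4 arrays, and their cause was not tested.

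**Figure D3:**
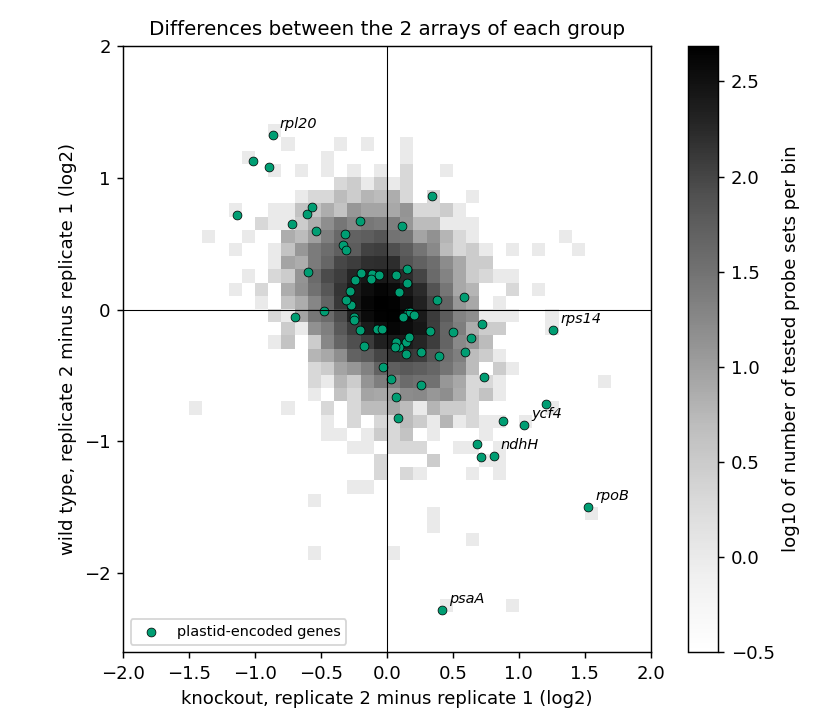
Difference between the 2 arrays of a genotype (replicate 2 minus replicate 1, log2), knockout on the x axis and wild type on the y axis; green points are the 69 plastid-encoded genes and grey shading counts all 15924 tested probe sets per bin. The plastid genes run from upper left (rpl20) to lower right (rpoB), and those with the widest gaps lie beyond the bulk of the array. The gap exceeded 0.5 in 23 of the 69 genes in the knockout and in 25 in wild type.

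The arrays that were high varied by complex, which is given without a test. Of the 6 atp genes, 4 were highest on knockout replicate 2 and wild type replicate 1 and 0 on the opposite arrays, atpH among them at 522 and 850 in the knockout, against 1115 and 542 in wild type. In the ndhH to ndhD unit this held for 5 of 7 genes. Of the 7 rpl genes, 5 were highest on knockout replicate 1 and wild type replicate 2. In the rps19 to rpoA unit that order held for 4 of 7 genes. Measured from each gene's own mean over the 4 arrays, the rpl genes stood at a median of 0.26 and -0.29 (log2) on the knockout arrays, against -0.16 and 0.17 on the wild type arrays. The 6 atp genes stood at -0.061 and 0.045, against 0.15 and -0.13. Over all 69 genes together the medians were -0.037 and 0.012, against 0.036 and -0.015.

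**Figure D4:**
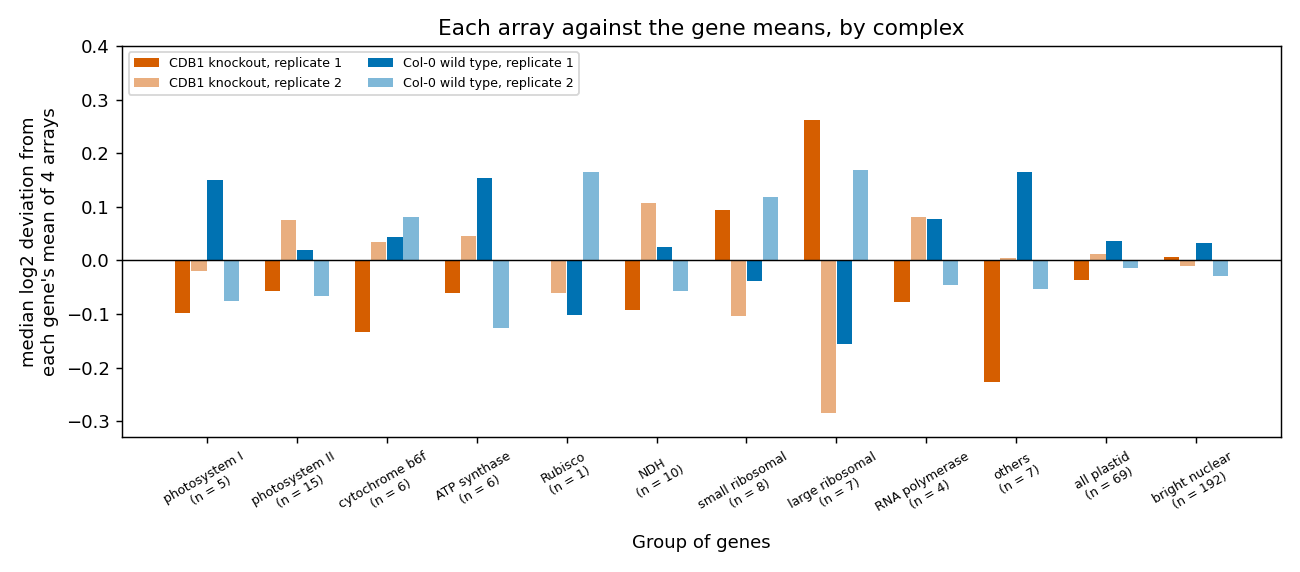
Median log2 deviation of each array from the gene's mean over the 4 arrays, for each complex, for all 69 plastid genes and for 192 bright nuclear probe sets; bars are single arrays, knockout in orange and wild type in blue, with replicate 2 in the paler shade. Large-subunit ribosomal genes are high on knockout replicate 1 (0.26) and wild type replicate 2 (0.17), while the ATP synthase genes are low there (-0.061 and -0.13).

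Mitochondrion-encoded genes were few and had lower signals. The 11 with a single symbol were matched by symbol, and 8 were above the brightness floor. Of these 8, 7 lay below 0, with a median log2 fold change of -0.078, none passed an adjusted p of 0.05 in limma and 0 had an unadjusted p under 0.05. Over all tested probe sets those 2 shares were 0.320% and 5.24%, so 0 of 8 is not a trait of these genes. nad4, a subunit of the respiratory complex I, was the brightest at 538 and 344 in the knockout, against 276 and 603 in wild type, with knockout replicate 1 and wild type replicate 2 high as for rpl20. That order held for 4 of the 8.

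Nuclear genes for partners of the plastid complexes could be followed only in part. Of 45 listed nuclear genes of the photosystems, the antenna, cytochrome b6f, the ATP synthase and Rubisco, 8 had a probe set with a single symbol. Of these 8, 0 passed the adjusted test, beside 0.320% of all tested probe sets. Among the 8, 7 lay above 0 and their median log2 fold change was 0.15, beside -0.052 for the plastid-encoded genes. The 8 were bright, and the 35 brighter plastid genes had a median of 0.014, with 19 above 0. The 192 bright nuclear probe sets had a median of 0.010, with 103 above 0. These contrasts were not tested. LHCB4.1, an antenna protein of photosystem II, read 2064 and 1808 on the knockout arrays, against 1518 and 1568 on the wild type arrays (log2 fold change 0.32, interval 0.037 to 0.61, limma adjusted p = 0.840). It was the 1 gene of the 8 with an unadjusted limma p under 0.05, beside 5.24% of all tested probe sets. Both knockout arrays lay above both wild type arrays for LHCB4.1, LHCB4.2, PSAN and PSBY. The groups overlapped for PSAE-1, PSBW, RCA and ATPC1. Over all tested probe sets, 15.0% had the knockout above, and the contrast was not tested. PSAN of photosystem I read 919 and 762 in the knockout, against 755 and 733 in wild type (log2 fold change 0.17, interval -0.14 to 0.47). PSBY read 1096 and 1018, against 913 and 968 (log2 fold change 0.17). Among the 21 listed sigma factors, nuclear-encoded polymerases and PEP-associated proteins, 1 had a single-symbol probe set, RPOTmp, at 6.80 and 19.9 in the knockout, against 13.6 and 9.40 in wild type. Its mean lay below the brightness floor, so it was not tested. The green tissue markers RCA and LHCB4.1, 2 of 9 listed, were present at high signal, with RCA at 2430 and 2685 in the knockout, against 2672 and 2292 in wild type. The root markers PYK10, EXPA18 and EXPA7, 3 of 6 listed, had log2 fold changes of -0.042, 0.19 and 0.40 and did not pass the test. The part of tissue composition in these values was not tested.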

How the data were processed

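Transcript signals of 4 arrays were used. The deposited table holds 1 linear intensity (signal) per probe set and array, which the authors made with MAS5, per the submitters' processing notes. No source used here gives its version, scaling target or detection calls. Precision is limited by the number of arrays, 2 per group. The 64 control probe sets were set aside, as were probe sets with a mean signal under the 30th percentile (19.5), which left 15924. A pseudocount of 16 was added before taking log2, so fold changes of dim genes are understated. The genotypes were compared by limma (3.58.1, R 4.3.3; two-sided, lmFit and eBayes, trend on intensity), and p-values were adjusted by Benjamini-Hochberg over all 15924 probe sets. With 2 arrays a side, no exact permutation p can be smaller than 0.333. The fit was tested on simulated data. Summaries used Python 3.11.15 and pandas 2.3.3.

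The plastid genes and the lists (promoter class, transcription unit, nuclear partners, markers) were chosen with earlier results of these data known. Promoter classes and units were drawn up from general knowledge of tobacco and Arabidopsis. Genes were named per complex as the brightest, the dimmest and those with the largest estimate in either direction, together with 12 measured genes fixed by name. From the comparison lists, those with the largest change were named, and petA, atpH, nad4 and RCA were added after their values were seen. Every plastid gene had a single probe set. Mitochondrial genes were matched to RefSeq by symbol, the others by gene number. The planned search for promoter motifs was not made. Replicate differences of the genotypes correlated at -0.301 over all tested probe sets, which gave no basis for pairing by number. Alternatives changed the scaling (quantile, median), the pseudocount (1, 64), the filter (none, 50th percentile), the trend, the replicate block, the arrays used and the summary (means).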

Additional observations from a re-analysis of the deposited data

How the results depend on the processing

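With all arrays, the count of plastid genes past the limma threshold was 0 under every planned setting of scaling, pseudocount, filter, trend and replicate block, and the medians of the 69 genes, of each complex and of each promoter class moved by less than the spread between replicates. Over all probe sets the count of 51 became 0 with no filter on dim probe sets and 89 with the replicate number as a block. The block moved no plastid call. A crossed pairing of the replicates as the block, chosen after seeing the data, gave 195 calls among the 15924 tested probe sets. Of the 69 plastid genes, 1 was called (cemA). This is a share similar to that over the array, so the count is not a trait of the plastid genes. Why this block gave more calls was not tested. Without the 8 plastid genes with the widest replicate gaps, also chosen after seeing the data, the median log2 fold change was -0.050.

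With 1 array left out, the lone array was assumed to vary like the other genotype. The count ranged from 0 to 1 for plastid genes (psaA without wild type replicate 2, rps14 without knockout replicate 2) and from 20 to 87 for all probe sets. The median log2 fold change ranged from -0.18 to -0.016 for psa, -0.23 to 0.11 for atp, -0.094 to 0.12 for rpo, -0.38 to -0.0027 for the other genes, -0.18 to -0.014 for pet, -0.11 to 0.068 for psb, -0.083 to 0.066 for ndh, -0.067 to 0.092 for rps, -0.25 to 0.19 for rpl, -0.11 to 0.020 for the PEP list, -0.12 to 0.073 for the mixed list and -0.26 to 0.21 for the NEP list. The sign of 30 of 38 named genes changed: accD (-0.43 to 0.21), atpB (-0.21 to 0.073), atpE (-0.024 to 0.098), atpI (-0.50 to 0.38), ccsA (-0.19 to 0.090), clpP (-0.012 to 0.13), matK (-0.051 to 0.19), ndhF (-1.07 to 0.053), ndhH (-0.65 to 0.46), ndhI (-0.17 to 0.15), petD (-0.46 to 0.13), petL (-0.34 to 0.38), psaA (-1.47 to 0.82), psaB (-0.18 to 0.072), psaJ (-0.21 to 0.39), psbB (-0.61 to 0.13), psbM (-0.093 to 0.068), rbcL (-0.20 to 0.070), rpl14 (-0.80 to 0.28), rpl20 (-0.48 to 0.85), rpl33 (-0.24 to 0.29), rpl36 (-0.22 to 0.013), rpoA (-0.18 to 0.076), rpoB (-1.05 to 0.48), rpoC1 (-0.13 to 0.44), rpoC2 (-0.26 to 0.24), rps14 (-1.20 to 0.055), rps15 (-0.27 to 0.86), rps16 (-0.26 to 0.011) and rps4 (-0.045 to 0.087). The sign of the other 8 held: atpF (-0.48 to -0.0051), cemA (-0.64 to -0.31), ndhA (0.023 to 0.23), petB (-0.22 to -0.0057), psaC (-0.35 to -0.016), psbA (0.039 to 0.31), psbN (0.024 to 0.66) and ycf3 (-0.45 to -0.15). Signs also changed to 0.087 for atpB, -0.010 for petL and -0.0048 for rps4 after quantile normalization, and to 0.0054 for ndhI, 0.00050 for psbM and 0.00015 for rpoC2 after median centring.

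With 2 arrays per genotype, differences of the size of the replicate gaps of psaA, rpoB or rps14 could not be resolved.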

Other observations

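With all 4 arrays, more of the dimmer than of the brighter plastid genes had estimates below 0, but this did not hold without knockout replicate 1 or without wild type replicate 2. Of the 34 genes below the plastid median signal, 28 had a log2 fold change below 0, with a median of -0.12, while 16 of the 35 brighter genes did, with a median of 0.014. The 5592 nuclear probe sets in the dimmer range had a median of -0.0053. With 1 array left out, 18 to 23 of the 34 dimmer genes lay below 0, with medians of -0.18 to -0.055, and 15 to 20 of the 35 brighter genes, with medians of -0.087 to 0.066. Without knockout replicate 1 the counts were 18 of 34 and 18 of 35 (medians -0.055 and -0.0047), and without wild type replicate 2 they were 19 of 34 and 20 of 35 (medians -0.10 and -0.087). The split was made after the values were seen and no test was run on it, and members that share a transcript are not independent.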
